A study of Drosophila melanogaster with 3 samples.

Results

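The genes ush and cbt form one compact locus on chromosome arm 2L of Drosophila melanogaster, and the strongest peak of the Su(H) chromatin immunoprecipitation and sequencing (ChIP-seq) data lay in it. The locus was chosen by that signal, so its signal values and ranks are given here as a description and carry no test. Its members are the 2 genes, of 13968 protein-coding genes annotated, and all peak summits in either gene or within 5 kb. There were 14 such summits of 3833 in the list of reproducible peaks, called thresholded here, and 51 of 30000 in the list from the pooled libraries. The 3 replicate lists, of 30000 peaks each, held 43, 45 and 59 of them in replicates 1 to 3. The material was 0 to 24 h whole embryos of mixed sex from the transgenic strain Su(H)-GFP, which stably expresses Su(H) with green fluorescent protein (GFP) at its C-terminus, precipitated with an anti-GFP antibody. One label field names Su(H) as the antibody target. The 3 libraries are biological replicates of this 1 group, and all of them carry the fusion. The labels do not say whether the endogenous Su(H) gene is intact, and control libraries were not analysed here. Because whole embryos of all stages were pooled, a strong signal in few cells and a weak one in many cells cannot be told apart.

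Suppressor of Hairless, Su(H), binds DNA for the Notch pathway. It recruits the corepressor Hairless in the absence of signalling and forms an activating complex with the cleaved Notch receptor and Mastermind when the pathway is on. U-shaped, the product of ush, is a zinc-finger protein of the Friend of GATA family that binds the GATA factors Pannier and Serpent and modifies their activity. It acts in the amnioserosa, the heart, the blood and the dorsal thorax. Cabut, the product of cbt, is a zinc-finger transcription factor related to the mammalian TIEG proteins of the KLF family. It is needed for dorsal closure of the embryo and takes part in the response to dietary sugar and in circadian output.

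The 2 genes overlap in opposite directions. ush (FBgn0003963) occupies 64341 bp of the plus strand, dm6 2L 476220 to 540560, and cbt (FBgn0043364) occupies 3243 bp of the minus strand, 2L 476446 to 479688. The whole of cbt therefore lies in the first intron of the 2 ush transcripts that begin at the first start. ush has 4 annotated starts. The first is at 476220, the second lies 14.62 kb downstream at 490835, and the last pair lies at 47.25 and 47.52 kb. In the transcript FBtr0333012 the first intron is 49060 bp long, and in FBtr0333013 an extra exon splits it into introns of 13185 and 34033 bp. cbt has a single start, at 3.47 kb on this scale, from which transcription runs back towards the first ush start. Peaks are named below by the distance of their summit from the first ush start. The window also touches CG4297 and MED15, which encodes a Mediator subunit, on the upstream side. On the downstream side it reaches lwr, which encodes the SUMO-conjugating enzyme, Spp, Ets21C and nAChRbeta3.

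The sequences under the strongest peak and its neighbours are shown to compare windows with and without the 9 motifs searched, since the strongest peak held none of them within 150 bp. Within 100 bp the +14.05, +40.04, +47.48 and +54.2 kb peaks held none either, 5 of 14 in all, against 40.6% of all thresholded windows. They are the plus strand of the dm6 reference assembly (RefSeq), in windows without annotated exons. The windows at -3.77 and +45.84 kb, also without exons, held motif matches and are not printed. Capitals mark matches to the motifs searched, and a window without capitals has no match. The +6.44 kb summit, which was below the threshold, is included for its Su(H) consensus.
+3.83 kb peak, 362 bp upstream of the cbt start, chr2L:479950-480150: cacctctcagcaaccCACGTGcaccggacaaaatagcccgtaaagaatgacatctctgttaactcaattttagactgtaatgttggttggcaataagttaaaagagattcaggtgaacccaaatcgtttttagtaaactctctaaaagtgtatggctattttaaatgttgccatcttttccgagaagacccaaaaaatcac
+4.87 kb peak, the strongest, chr2L:480937-481236: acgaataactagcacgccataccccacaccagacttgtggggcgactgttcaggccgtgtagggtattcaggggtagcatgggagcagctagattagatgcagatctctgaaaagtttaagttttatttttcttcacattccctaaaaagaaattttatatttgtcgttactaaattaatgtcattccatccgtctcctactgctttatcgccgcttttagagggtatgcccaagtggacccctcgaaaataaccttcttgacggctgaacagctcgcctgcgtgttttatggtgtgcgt
+5.69 kb peak, chr2L:481807-482007: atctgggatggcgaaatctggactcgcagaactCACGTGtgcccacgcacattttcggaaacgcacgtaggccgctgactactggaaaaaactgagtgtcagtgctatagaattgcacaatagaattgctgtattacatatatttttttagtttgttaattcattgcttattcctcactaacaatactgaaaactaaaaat
+6.44 kb summit, below the threshold, chr2L:482558-482758: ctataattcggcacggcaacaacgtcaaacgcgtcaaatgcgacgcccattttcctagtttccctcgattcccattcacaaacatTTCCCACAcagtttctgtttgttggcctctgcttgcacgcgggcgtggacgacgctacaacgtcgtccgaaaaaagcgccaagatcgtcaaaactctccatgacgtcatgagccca
+9.71 kb peak, chr2L:485832-486032: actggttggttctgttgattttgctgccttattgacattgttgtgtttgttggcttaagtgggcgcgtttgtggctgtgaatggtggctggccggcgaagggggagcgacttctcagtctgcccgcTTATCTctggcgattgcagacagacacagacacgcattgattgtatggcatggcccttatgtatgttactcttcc
+34.42 kb peak, chr2L:510537-510737: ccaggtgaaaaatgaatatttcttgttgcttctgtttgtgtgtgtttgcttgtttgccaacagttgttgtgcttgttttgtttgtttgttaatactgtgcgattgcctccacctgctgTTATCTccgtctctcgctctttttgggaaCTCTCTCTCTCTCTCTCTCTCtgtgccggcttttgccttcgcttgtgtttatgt
+40.04 kb peak, chr2L:516163-516363: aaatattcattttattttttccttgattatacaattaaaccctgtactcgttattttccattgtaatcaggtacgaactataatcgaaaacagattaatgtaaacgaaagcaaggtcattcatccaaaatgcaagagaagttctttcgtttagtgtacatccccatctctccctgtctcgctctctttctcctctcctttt
+44.62 kb peak, chr2L:520741-520941: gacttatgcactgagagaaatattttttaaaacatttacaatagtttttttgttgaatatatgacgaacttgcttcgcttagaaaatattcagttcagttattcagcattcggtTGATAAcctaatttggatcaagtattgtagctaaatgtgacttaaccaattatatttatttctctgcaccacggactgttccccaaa
+54.2 kb peak, chr2L:530316-530516: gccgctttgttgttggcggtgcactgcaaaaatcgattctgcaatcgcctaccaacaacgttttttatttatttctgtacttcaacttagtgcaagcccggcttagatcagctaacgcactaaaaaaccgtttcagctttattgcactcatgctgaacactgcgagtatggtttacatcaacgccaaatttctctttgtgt

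The strongest peak, at 2L 480820 to 481317, lay in the first ush intron with its summit 1398 bp upstream of the cbt start and 4866 bp downstream of the first ush start. Its authors' signal was 2733 in the pooled list. In the replicate lists it was 825, 936 and 963 in replicates 1 to 3, a mean of 908 ± 73.4 (SD, n = 3). The peak ranked second in replicate 1 and first in the others, and the replicate summits lay within 9 bp of each other. It was not far ahead of the next peaks of the genome. In the pooled list its signal was 1.05 times that of the second peak and 1.09 times that of the third, and in replicate 1 the peak ranked first was 1.03 times as strong as it. Relative to the median signal of the whole list, it stood at 40.7, 55.8 and 54.4 times in replicates 1 to 3. Every 32-base stretch of the interval occurred once in the assembled chromosome arms and the Y, so no exact copy of that length was found. Copies with mismatches were not searched for, and the result was the same for every thresholded peak of the locus.

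Within the locus the strongest peak stood above the second by a similar factor in each library. The second was the +3.83 kb peak (2L 479896 to 480236), 362 bp upstream of the cbt start, with a signal of 258, 286 and 246 in replicates 1 to 3 (mean 263 ± 20.4, n = 3). It ranked 68, 58 and 89 in these lists. The strongest peak was 3.2, 3.28 and 3.92 times as strong, a mean ratio of 3.47 ± 0.397 (n = 3). A ratio within a list does not depend on any scale factor between libraries. Over the 2644 protein-coding genes with 2 or more thresholded summits in the gene or within 5 kb, the median ratio of the strongest to the second, by pooled signal, was 1.55, and 8.59% had a ratio of at least the 3.5 of ush. The same ratio was 2.2 at tara and 5.24 at Mef2. The strongest peak made up 46.1% of the summed pooled signal of the thresholded peaks counted for ush, 62.6% of that counted for cbt, 41.0% at tara and 66.1% at Mef2. The median over the 2644 genes was 56.5%, so that ush was below it by this measure and above it by the ratio. The share depends on how many summits are summed, which were 14 for ush and 5 for cbt. The 2644 genes were not matched on that number, so the place of ush below the median does not describe its strongest peak alone.

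**Figure D1:**
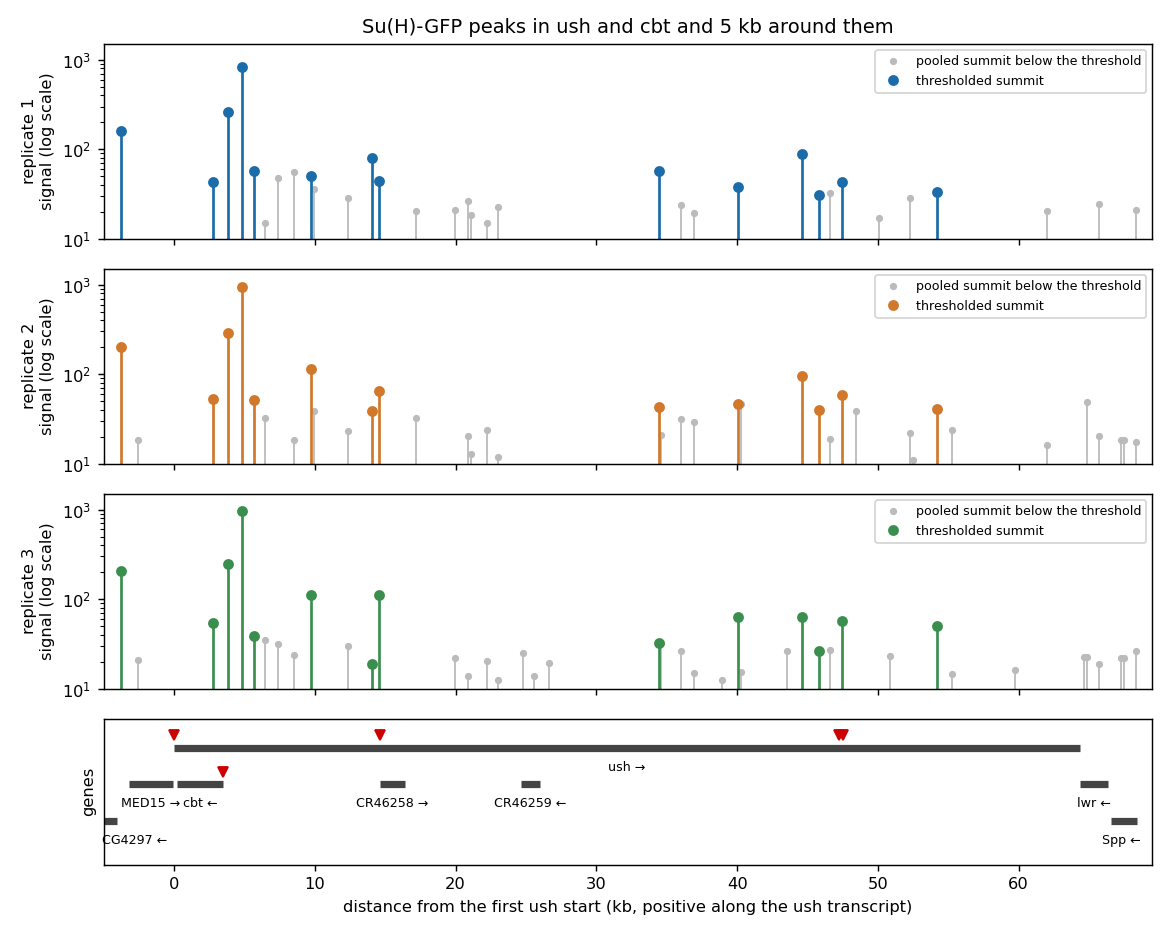
Authors' signal (log scale) of each pooled summit of the locus in the nearest summit of replicates 1 to 3 within 200 bp, against the distance from the first ush start in kb. Coloured points are thresholded summits, grey points those below the threshold, bars are genes (Ets21C and nAChRbeta3 are not drawn), arrows give the strand and triangles mark starts of ush and cbt. The highest point in each replicate is the +4.87 kb peak, with signals of 825, 936 and 963, and its neighbour at +3.83 kb is the second highest.

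The peaks inside ush are described in 4 sets by position, and the peak upstream of both genes after them. The first set surrounds cbt. Besides the 2 strongest peaks it held the +2.78 kb peak (2L 478796 to 479211), which lay inside cbt, in the first intron of 2 cbt transcripts and in the 5' untranslated region of the third. Its signal was 42.8, 52.3 and 53.4 in replicates 1 to 3 (mean 49.5 ± 5.83). The fourth member was the +5.69 kb peak (2L 481699 to 482114), with 57.1, 50.8 and 38.9 (mean 49.0 ± 9.24). These 4 summits were spaced by 1046, 1036 and 821 bp, and the outer pair was weaker than the inner pair in every replicate. The strongest peak was 18.4 ± 0.759 times as strong as the +2.78 kb peak and 19.2 ± 5.2 times as strong as the +5.69 kb peak. No summit of the pooled list lay between neighbours of this set.

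The second set covers the rest of the first intron up to the second ush start. The +9.71 kb peak (2L 485858 to 485976) had a signal of 50.1 in replicate 1, 113 in replicate 2 and 111 in replicate 3, so that replicate 1 was low by a factor of about 2.26. A pair of peaks followed at +14.05 kb (2L 490063 to 490478) and +14.57 kb (2L 490581 to 490996), 518 bp apart. The second of these had its summit 46 bp from the second ush start, which is also the start of the non-coding gene lncRNA:CR46258. Both summits lay in the exon that only FBtr0333013 has there, which is 5' untranslated, and in the first intron of FBtr0333012. The +14.05 kb peak had a signal of 80.3, 38.7 and 18.8 in replicates 1 to 3, at ranks of 986, 3690 and 13351. The +14.57 kb peak had the opposite order, with 43.8, 65.3 and 110, at ranks of 2877, 1414 and 547. The ratio of the first to the second was 1.83 in replicate 1, 0.593 in replicate 2 and 0.171 in replicate 3, so the stronger of the pair was not the same in all libraries. The spread of these 2 peaks over replicates, with coefficients of variation of 68.2% and 46.4%, was the widest among the 14 thresholded peaks, where the others were between 7.77% and 39.1%.

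**Figure D2:**
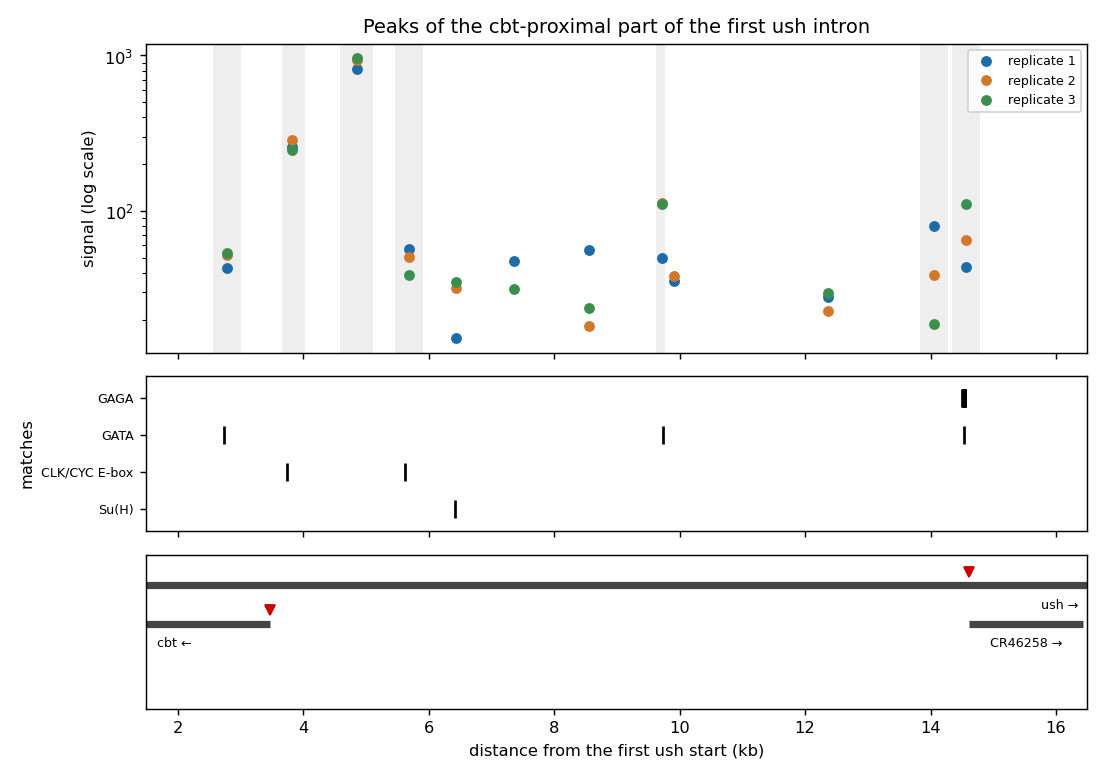
Upper panel, authors' signal (log scale) of the pooled summits between the cbt gene and the second ush start in replicates 1 to 3, with grey bands for thresholded peaks, against the distance from the first ush start in kb. The middle panel marks matches to 4 motifs in the windows around thresholded summits and around the +6.44 kb summit, and the lower panel shows the genes. The order of the replicates is turned between the peaks at +14.05 and +14.57 kb.

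The third set lies in the distal part of the long intron, next to the last pair of ush starts, and the fourth is 1 peak further in. Between the +14.57 and +34.42 kb summits there was a stretch of 19848 bp with no thresholded summit. It held 10 pooled summits, the best of which ranked 8809, and it includes the gene lncRNA:CR46259. Also in it was the longest gap between pooled summits, 7786 bp. More than 200 bp from the ends of this gap, replicates 1 to 3 held 2, 0 and 3 summits. With the same margin the whole stretch of 19848 bp held 9, 7 and 14. The +34.42 kb peak (2L 510429 to 510844) had 57.7, 42.6 and 32.2 in replicates 1 to 3, and the +40.04 kb peak (2L 516055 to 516470) had 38.2, 46.7 and 63.3, so that replicates 1 and 3 were again in opposite order. The strongest of the distal peaks was the +44.62 kb peak (2L 520633 to 521048), 2625 bp upstream of the third ush start, with 89.3, 96.3 and 63.2 (mean 82.9 ± 17.4). A weaker one followed at +45.84 kb (32.3 ± 6.92). The +47.48 kb peak (2L 523487 to 523902) had its summit 41 bp from the last ush start and 229 bp from the one before, with 42.9, 59.1 and 56.6 (mean 52.9 ± 8.71). The last, at +54.2 kb (2L 530208 to 530623), lay in the second intron of FBtr0333012, which is 10586 bp long, with 41.4 ± 8.23. The 5 introns further downstream, of 60 to 117 bp, held no summit of the pooled list.

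The starts of the 2 genes were not occupied alike. The thresholded summit nearest to the first ush start was 2784 bp away, and in the pooled, replicate 2 and replicate 3 lists the nearest summit was 2585, 2625 and 2582 bp away. Only replicate 1 had a closer one, at 565 bp. The second and the last ush starts each had a summit within 86 bp in every list. The cbt start had its nearest summit 362 to 374 bp upstream in all lists. Of the 14 thresholded summits, 13 were inside ush and 1 of these inside cbt, and 4 were within 500 bp of an annotated start. The summit outside both genes, at -3.77 kb (2L 472351 to 472617), was 245 bp from the start of CG4297 and had 159, 200 and 206 in replicates 1 to 3 (mean 188 ± 25.7). It was the third strongest of the locus in every list, yet it lay nearer to that neighbour than to ush or cbt. The next thresholded summit on that side was 5.47 kb from the gene edge, just beyond the window, with a pooled signal of 347. Beyond the downstream end of ush the nearest was 27.68 kb away.

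Many more summits were counted at ush than at most genes. With 14, against a share of 45.7% of protein-coding genes that had any thresholded summit in the gene or within 5 kb, ush shared second place with Raf behind CG1677, which had 16. Genes with at least as many as ush made up 0.0215% of the 13968 protein-coding genes. ush is long, and length alone gives more room for summits. How far length sets the count was not tested. Of the 181 protein-coding genes within 15 kb of its length, 68 had none, the median was 1 and no other gene had 14. Raf, with the same 14 summits, is shorter at 48405 bp and falls just outside that range of lengths. cbt, which is short, had 5 by the same count, all of them but the +2.78 kb peak outside the gene. tara had 12 and Mef2 had 5. Per 10 kb the window held 1.88 thresholded summits, against 0.286 over the assembled arms. For the pooled summits these values were 6.86 and 2.24. Around the strongest peak there were 4 other thresholded summits within 5 kb, a number reached by 2.24% of all thresholded peaks, where the median was 1. With pooled summits it had 7 neighbours against a median of 4, and 21.0% of thresholded peaks had at least as many. All of these counts use the lists by which the locus was chosen.

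**Figure D3:**
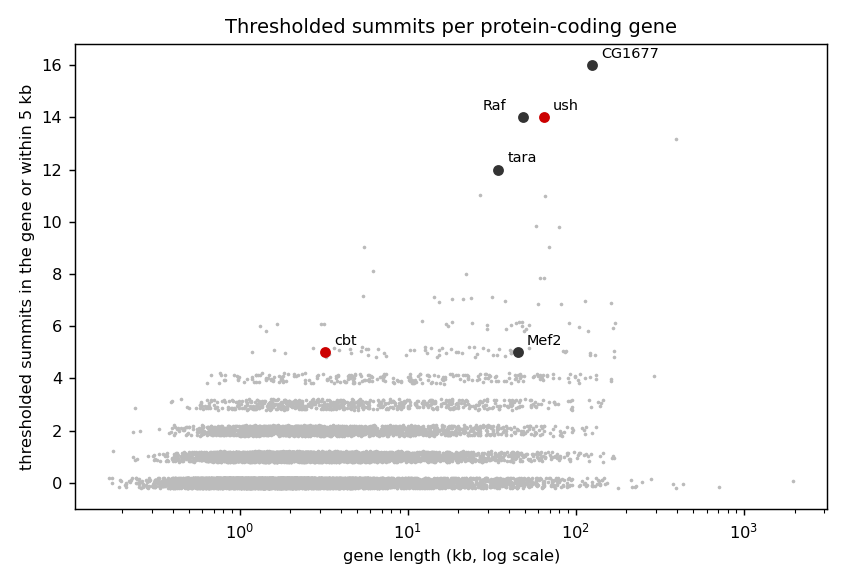
Thresholded summits in each protein-coding gene or within 5 kb, against gene length (log scale, in kb), 1 point a gene with a small vertical jitter on grey points. ush lies at 14 summits beside Raf, cbt at 5, tara at 12, Mef2 at 5 and CG1677 at 16.

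How far the replicates showed the same summits was read from the pooled list. In the locus 25 of 51 pooled summits (49.0%) had a summit within 200 bp in all 3 replicate lists, against 31.9% of all pooled summits. The locus has more of the strong peaks, since 14 of its 51 pooled summits were thresholded against 12.8% of all. All 14 thresholded summits were matched, as were 97.9% of all thresholded summits, a list that was itself made from these replicate lists. Below the threshold 11 of 37 were matched (29.7%), against 22.2% of all pooled summits below it. Neighbouring summits can share 1 replicate summit, so these shares are given without an interval or a test. The strongest of them was the +8.56 kb summit, with a pooled signal of 98.8 and 56.1, 18.1 and 24.0 in replicates 1 to 3. The weakest thresholded peak, at +45.84 kb, had a pooled signal of 109. By Spearman's rho over the 14 thresholded peaks, the order of signal was closest in replicates 2 and 3 (0.93), followed by 1 and 2 (0.648) and by 1 and 3 (0.499). Without the strongest peak these values were 0.912, 0.56 and 0.374. The points are neighbouring peaks of the same libraries, so the values describe the order and no more. Ranks 1 to 3 within the locus went to the same peaks, at +4.87, +3.83 and -3.77 kb, in all replicates.

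**Figure D4:**
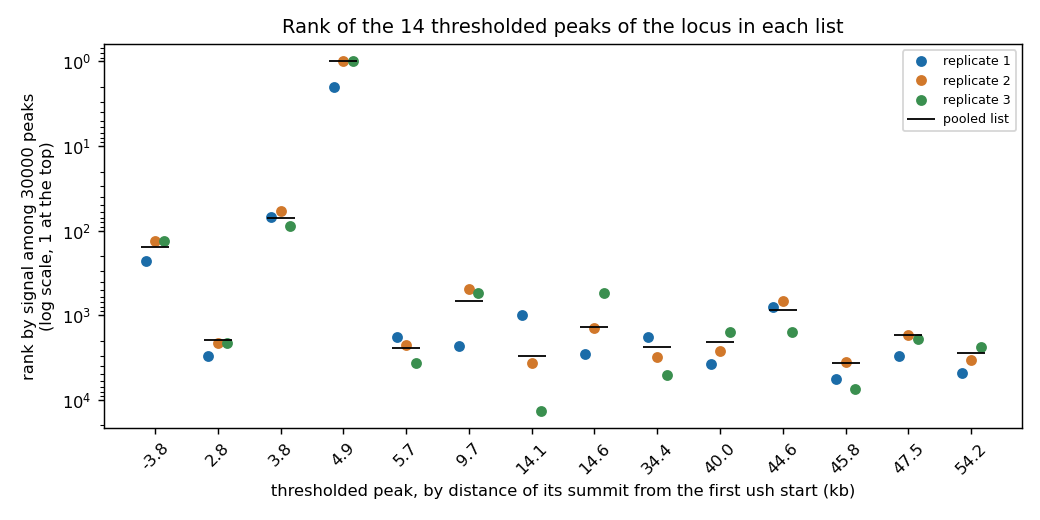
Rank by signal (log scale, 1 at the top) of the 14 thresholded peaks of the locus among the 30000 peaks of replicates 1 to 3 (points) and of the pooled list (bars), by distance from the first ush start in kb. The peaks at -3.8, 3.8 and 4.9 kb kept ranks of 231 or better in each list, and the peak at 14.1 kb ranged from 986 to 13351.

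Sequence played no part in the choice of the locus. The Su(H) consensus was searched as CGTGAGAA or CGTGGGAA or TGTGAGAA or TGTGGGAA on both strands. None of the 14 thresholded summits had a match within 100 bp, where 3.57% of all thresholded windows of the same 201 bp had one. In the whole window of 74341 bp there were 2 matches, 0.269 per 10 kb, against 1.06 per 10 kb over the assembled arms. One, TGTGGGAA on the minus strand at 2L 482643 to 482650, was 11 bp from the +6.44 kb summit shown above. That summit was below the threshold, with a pooled rank of 4759 and a signal of 15.1, 31.9 and 34.8 in replicates 1 to 3, so that replicate 1 was the low one. The other, CGTGGGAA on the same strand at 2L 523895 to 523902, lay in the 5' untranslated region of the ush transcripts that begin at the last pair of starts, 204 bp from the +47.48 kb summit. The nearest match to the strongest peak was 1560 bp from its summit.

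Other motifs were spread over the peaks without one that all of them held. The E-box CACGTG, which is bound by the circadian activators CLK and CYC among others, was present within 100 bp of the +3.83 and +5.69 kb summits, on both sides of the strongest peak, and in 2.9% of all thresholded windows. The strongest peak had one at 200 bp from its summit, at the edge of its interval. Of all thresholded summits, 7.36% had one in a window of that length, 498 bp. The GATA site, searched as AGATAA or AGATAG or TGATAA or TGATAG, was in 7 of 14 windows of the locus and in 34.8% of all thresholded windows. The match began 14, 18, 26 and 56 bp after the summit at +44.62, +34.42, +9.71 and +45.84 kb. It began 43, 50 and 95 bp before the summit at +14.57, +2.78 and -3.77 kb. GAGAGAG, the repeat bound by GAGA factor, was in 3 of 14 windows and in 5.71% of all. At +14.57 kb, next to the second ush start, 13 matches, many of them overlapping, lay within 61 bp, and at +34.42 kb 8 overlapping matches spanned 21 bp. A GAGA match overlapped a GATA match at -3.77 and at +14.57 kb. CACCC was in 1 of 14 windows (18.7% of all). The DREF element TATCGATA (5.37% of all), the Zelda site CAGGTAG (1.02%), the GC box GGGCGG (4.62%) and Motif 1, the site of M1BP (2.03%), were in none. These matches describe the letters in the windows and not binding. The G and C content of the strongest window was 40.3%, within the range of 31.3 to 55.7% over the 14 peaks, and the median over all thresholded windows was 38.8%.

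The genes most like ush in the signal of their strongest peak over the 3 replicate lists shared 2 peaks. Likeness was the Euclidean distance of the log2 signal over 3 libraries, leaving out MED15 and cbt, which share the strongest peak within 5 kb. CG14100, CG9231, CG9330 and ash1 all had the same peak, with a signal of 847, 824 and 956 in replicates 1 to 3 (distance 0.188), 103 bp from a start of CG14100. CG2680 came next with 758, 823 and 932 (distance 0.227), a peak that it shared with 4 other genes, Ugalt among them. Each of these 5 genes had that single thresholded summit in its 5 kb window, where ush had 14.

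Gene lists drawn from the known roles of Ush and Cabut were examined by the same count, against the 45.7% of all protein-coding genes. Only the first list was made to include partners of Ush, and none was made of partners of Cabut. Of 8 GATA factor genes and genes of Ush partners, 7 had a thresholded summit in the gene or within 5 kb, and pnr, the gene of the GATA factor that Ush binds in dorsal tissue, had none. srp, the gene of the blood GATA factor, and GATAe were counted for the same peak, with 58.4, 28.9 and 47.4 in replicates 1 to 3 (mean 44.9 ± 14.9). It was 6213 bp from a start of srp and 3803 bp from one of GATAe. Its nearest start was that of lncRNA:CR42839, at 2771 bp. The strongest of this list were simj, with 138, 118.5 and 119.2 in replicates 1 to 3 (125 ± 10.9), the corepressor gene CtBP (86.3 ± 16.7) and MEP-1 (80.8 ± 9.73). The simj peak was 14069 bp from a simj start and 12216 bp from one of CG11811. The peaks of CtBP and MEP-1 were 878 and 71 bp from starts of these genes. Of 17 genes of the JNK and Dpp pathways in dorsal closure 14 had a thresholded summit by this count. The signal transducer genes Med (227 ± 15.7) and Mad (164 ± 25.5) and the inhibitor gene Dad (125 ± 11.5) led, although the Med peak was 1 bp from the start of Mnat9 and 5113 bp from a start of Med. The Dad peak was 10226 bp from a start of Dad and 7552 bp from one of Ns1. The Mad peak was 674 bp from a start of Mad. No thresholded summit was counted for bsk, tkv and zip. Among 7 other genes of the KLF and Sp family 3 had one, Spps (72.8 ± 2.99), luna (72.3 ± 5.01) and dar1 (46.0 ± 10.8), and the Spps peak was 90 bp from the start of twin. The luna and dar1 peaks were 43718 and 12495 bp from starts of those genes. The nearest start to the luna peak was that of CG43188, at 22488 bp. Of 8 clock genes 4 had a summit, led by Pdp1 (98.4 ± 21.9), cyc (62.1 ± 19.4) and cwo (59.0 ± 25.1), and Clk, per, tim and cry had none. The cyc peak was 80 bp from the start of Deaf1, and those of Pdp1 and cwo were 4483 and 5600 bp from their own starts. Of 3 sugar sensing genes bigmax had a summit (125 ± 17.9), 104 bp from its start. Shares of 87.5% and 82.4% for the first pair of lists stand above the 45.7% of all genes, and those of 42.9%, 50% and 33.3% for the rest near or below it. With 2 kb on each side 27 of the 43 list members had a summit, against 33.0% of all protein-coding genes. In the order of the lists above, these were 6 of 8, 14 of 17, 3 of 7, 3 of 8 and 1 of 3. With the 1000 strongest peaks alone 15 had one, against 17.6% of all. In the same order these were 3 of 8, 9 of 17, 1 of 7, 1 of 8 and 1 of 3. The lists are short and were chosen with results of these data known, and gene length was not taken into account.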

How the data were processed

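Su(H) binding was measured by ChIP-seq in 3 biological replicates of 0 to 24 h embryos of 1 group, so no contrast between groups was made. Replicate numbers are those of the labels. Chromatin was sonicated to 200 to 800 bp, per the labels. The authors deposited peak lists on dm6 and dm3, and the dm3 lists were not used here. Per the file lists deposited with the samples, 1 library with a control gave each replicate list, all 3 with a control gave the pooled list, and the thresholded list was made from these 4 by irreproducible discovery rate (IDR). Neither aligner, peak caller nor IDR cutoff is given in the sources at hand. The signal of each peak is the value deposited by the authors. Whether it is scaled for depth is not stated, and it was used to rank and describe peaks. Depth is unknown, so signal has no counting interval here. SDs are over 3 replicate lists.

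Summits were taken as start plus the deposited offset and given 1-based. A replicate summit matched a pooled one when it was the nearest and within 200 bp, and a replicate summit could match more than 1. Genes came from Ensembl release 115 and sequence from RefSeq, both on the dm6 assembly. Motifs were searched on both strands within 100 bp of summits, or 150 bp where printed for the strongest. Code for matching and motifs (Python 3.11.15, pandas 2.3.3, numpy 2.4.6, scipy 1.17.1) was tested on simulated data. The members, lists, motifs and alternatives were chosen with earlier results of these data known, so no test was run. Named genes were those touching the window, the 5 most alike and up to 3 of each list with the strongest peak. Members of lists without a peak, tara, Mef2, Raf, CG1677, srp, GATAe, ash1 and genes nearest to a peak were named after their values were seen. Alternatives were other flanks, match rules, motif windows, stricter peaks and leaving out each replicate.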

Additional observations from a re-analysis of the deposited data

How the results depend on the processing

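The number of thresholded summits at the locus, 14, was 13 without a flank, 13 with 2 kb and 16 with 10 kb on each side, and 5 when only the 1000 strongest thresholded peaks were counted. Leaving out each replicate gave a mean signal of the strongest peak of 880 to 950, and a ratio to the next peak of 3.24 to 3.6. The signal was the same when the strongest overlapping replicate peak was taken, and the ratio when the next peak had to be 500 or 1000 bp away. The share of pooled summits matched in all lists, 49.0%, was 43.1% within 100 bp, 60.8% within 500 bp, 58.8% by overlap of intervals and 52.9 to 62.7% without 1 replicate, the highest without replicate 1. This last share asks for a match in 2 lists in place of 3. The share over all pooled summits, 31.9%, is given only for 200 bp and 3 lists. How the locus compares with all pooled summits under the other rules is therefore not shown. No motif was found within 50, 100 or 150 bp of the strongest summit, and 1 in the whole interval. The 5 gene lists had 29 of 43 members with a peak, 27 with 2 kb on each side and 15 with the 1000 strongest peaks, which are fewer peaks by construction. The shares of all protein-coding genes by these rules were 45.7%, 33.0% and 17.6%. Among the 14 thresholded peaks, those at +9.71, +14.05 and +14.57 kb differed by more than 2 times between replicates. As depth is unknown, how far it sets these differences was not tested. No paired analysis was possible because all samples belong to 1 group.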
